A study of Mus musculus with 8 samples.

Results

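RelA (p65) peaks that lay inside protein-coding genes of moderate size were examined one by one and gene by gene. A peak was a member if its centre lay on chromosomes 1 to 19, inside a protein-coding gene of the RefSeq GRCm38 gene table and more than 1 kb from every end of a gene of any kind, and if the longest such gene spanned less than 100 kb. Of the 9829 peaks, 1452 (14.8%) met this rule. The cells were primary fibroblasts taken from wild-type C57BL/6 embryos, all kept in low serum overnight before TNF, an inflammatory cytokine, was added at 10 ng/ml. RelA chromatin immunoprecipitation libraries (ChIP-seq) were made in duplicate at 0, 0.5 and 3 h, and 2 libraries of input DNA were made, 8 libraries in all. The values available were 1 list of peak positions with no height, score or library, so times could not be compared, depth was unknown, and the spread between replicates could not be given. The labelled cell type could not be checked against marker genes, because peak positions carry no expression.

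RelA is the NF-kB subunit with a strong activation domain. In resting cells it is held in the cytoplasm by IkB proteins. TNF activates the IKK kinase, IkB is degraded, and dimers that contain RelA enter the nucleus and bind DNA elements called kappaB sites. Target genes include inflammatory mediators, survival factors and the pathway's own inhibitors, and such sites occur in promoters and in enhancers within and between genes. A promoter can also lie inside a gene, where a shorter transcript starts downstream of the first one.

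The members at transcript starts inside genes were the ones whose DNA could be read, because RefSeq start windows (GRCm38.p6) give 250 bases before and 50 bases after each listed start. Among the members, 60 peaks in 60 genes wholly contained such a window. They were 4.25% of the members on chromosomes with listed starts, with a median width of 818 bp beside 665 bp for the others. A wider peak contains a whole window of 300 bases more easily, so this choice of peaks itself favours width. Motif shares given below therefore describe these peaks and not the members in general. The kappaB consensus, a 10-base pattern searched on both strands, had a match in the windows of 18 of these 60 peaks (30%). The following 8 stretches are shown from the GRCm38 (mm10) build because they carry those matches, and their genes were chosen after the values were seen. Neurl3, Rap1gap, Tmem39a, Slc7a7 and Fam107a had the match nearest the peak centre. Myadm carries the same word as Neurl3, and Maff and Bcl2l1 belong to gene lists described below. Each is written 5′ to 3′ along the strand of its gene, and capitals mark the consensus match, read on either strand. All of the matches shown lay upstream of the listed start, where 250 of the 300 bases of a window lie.
Neurl3 (chr1:36273501-36273560, minus strand): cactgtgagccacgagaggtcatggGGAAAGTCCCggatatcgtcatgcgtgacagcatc
Rap1gap (chr4:137681537-137681596, plus strand): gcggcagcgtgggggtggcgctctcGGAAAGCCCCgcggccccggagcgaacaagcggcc
Tmem39a (chr16:38562703-38562762, plus strand): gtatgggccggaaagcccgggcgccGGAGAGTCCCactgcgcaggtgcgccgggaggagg
Slc7a7 (chr14:54417792-54417851, minus strand): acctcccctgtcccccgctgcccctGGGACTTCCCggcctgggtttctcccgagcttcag
Fam107a (chr14:8309992-8310029, minus strand): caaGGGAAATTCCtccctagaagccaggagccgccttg
Myadm (chr7:3290451-3290510, plus strand): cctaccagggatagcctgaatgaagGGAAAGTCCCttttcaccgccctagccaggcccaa
Maff (chr15:79348307-79348366, plus strand): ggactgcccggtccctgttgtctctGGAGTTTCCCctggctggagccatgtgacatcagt
Bcl2l1 (chr2:152830925-152830967, minus strand): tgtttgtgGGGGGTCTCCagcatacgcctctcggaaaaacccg

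Neurl3 is a RING-type ubiquitin ligase gene. Its match centre lay 10 bp from the centre of a 569-bp peak, and 106 bp upstream of the listed start. The match in Rap1gap, which encodes an inactivator of the small GTPase Rap1, also lay 10 bp from its peak centre, in a 534-bp peak. In Maff, a small Maf transcription factor gene, the match lay 66 bp upstream of the start but 354 bp from the centre of its 1264-bp peak, the greatest distance seen. In Bcl2l1, which encodes the anti-apoptotic protein Bcl-xL, the match lay 213 bp from the centre of a 1147-bp peak. Across the 22 distinct matches in member peaks the median distance to the peak centre was 110 bp, from 10 to 354 bp, and 9 lay within 100 bp. Only bases of start windows were searched, so these distances also depend on where the window lay in the peak. The matches spelled 20 distinct 10-base words, and only GGGACTTTCC (Neurl3 and Myadm) and GGGACTTCCC (Sbno2 and Slc7a7) occurred 2 times. Of the 22 matches, 19 lay before the start, but so do 250 of the 300 bases of each window. The count therefore shows no preference for that side. A match describes the letters and does not show that RelA contacted them.

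Start windows inside member peaks held the kappaB consensus about as often as start windows inside other RelA peaks, and both did so more often than windows without a peak. Of 67 windows in member peaks, 22 had a match (32.8%, Wilson 95% interval 22.8 to 44.7), where 4.57% of all 31396 windows had one. Windows wholly in another peak had a match in 226 of 741 (30.5%, 27.3 to 33.9), and windows only partly covered by a peak in 10.8%. In windows that no peak touched, the share was 3.76% (3.55 to 3.98). Intervals here and below cover counting error only, and windows of neighbouring starts in 1 gene share sequence.

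G+C content moved with these classes, with a median of 58.3% in member windows, 63.3% in windows of other peaks and 52.7% in windows without a peak. At a G+C content below 50%, 30% of 10 member windows and 2.05% of windows without a peak had a match. Between 50% and 60% the shares were 28.6% and 4.98%, and at 60% or more they were 37.9% and 4.81%. Within each of the 3 ranges the interval of the member windows lay above that of the windows without a peak, and it overlapped that of windows in other peaks. The AP-1 motif TGANTCA, the site of Fos and Jun dimers, also searched on both strands, was in 10 of 67 member windows (14.9%, 8.31 to 25.3), beside 7.84% of all windows. In windows of other peaks that share was 7.69% and in windows without a peak 7.9%. With each peak counted once, 8 of 60 member peaks (13.3%, 6.91 to 24.2) and 55 of 601 other peaks (9.15%, 7.1 to 11.7) had an AP-1 match, and these intervals overlapped. For the kappaB consensus the shares by peak were 30% (19.9 to 42.5) and 31.4% (27.9 to 35.3). A window without a match says only that these letters were not in those 300 bases.

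Member peaks were concentrated at starts inside genes. On the 18 chromosomes with listed starts, 124 of 1412 members (8.78%) were centred within 1 kb of one, a zone that made up 1.48% of the interior. Here interior means every base where a peak centre would have met the rule. Members had a density of 24.2 per Mb there (exact Poisson 95% interval 20.2 to 28.9) and 3.79 per Mb (3.58 to 4) farther away, a ratio of 6.4. Closer in, the ratio was 10.9 within 500 bp and 14.8 within 150 bp, where 43 members lay at 59 per Mb (42.7 to 79.4). Of the 60 genes whose inner start window lay in a member peak, 27 had a further listed start within 1 kb of their outer 5′ end and 33 did not. Start sites on chromosome 18 were not used here, which left out 40 members. Some genes on the other chromosomes, such as Marcks, had no listed start, so members counted as farther away can lie at an unlisted one.

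**Figure D1:**
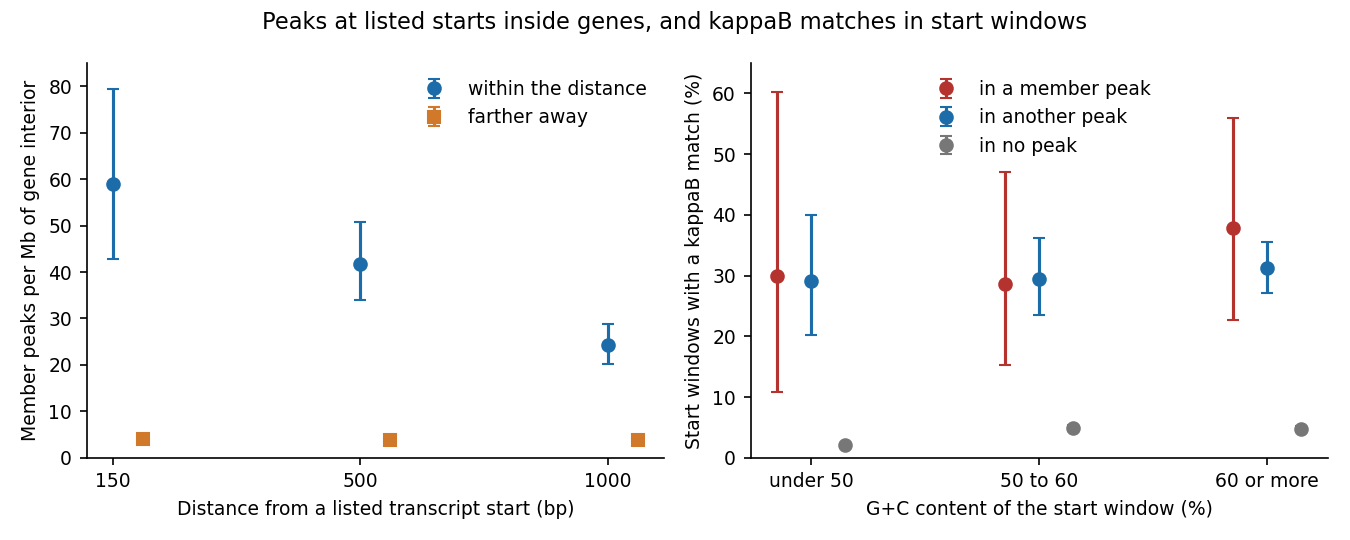
Left, density of member peaks per Mb of gene interior (y axis) within 150, 500 or 1000 bp of a listed transcript start (circles) and farther away (squares), with exact Poisson 95% intervals. Right, percent of start windows with a kappaB consensus match (y axis) by G+C content (x axis) for windows in member peaks, in other peaks and in no peak, with Wilson 95% intervals. Density was 59 per Mb within 150 bp and 24.2 per Mb within 1000 bp, and the windows without a peak lay at 2.05 to 4.98% while both classes of windows in peaks lay near 30% or above.

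Several members at inner starts were in genes with well-known roles. Socs3, a feedback inhibitor of JAK-STAT signalling, had a 1075-bp peak at chr11:117968647-117969721, centred 182 bp from a listed start and 1.15 kb from the gene's 5′ end. Bbc3, which encodes the pro-apoptotic protein Puma, held 2 members, of which the 429-bp one was centred 180 bp from a listed start. In Sesn1, a stress-induced regulator of growth signalling, the 897-bp member lay 77 kb into a gene of 97.9 kb and 144 bp from a listed start. Tank, a TRAF-binding adaptor gene, had 2 members, 1 of them 285 bp from a listed start and 14.9 kb into the gene. The member in Bcl2l1 with the match shown lay 450 bp from a listed start and 2.64 kb into the gene, and a second, 622 bp wide, lay 41.2 kb into the gene. Members within 1 kb of a listed start had a median width of 757.5 bp, and the others had 664 bp. A width of 1100 bp or more was reached by 8 of the 124 members within 1 kb of a start and by 52 of the 1288 others.

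Along the gene, member peaks were denser toward the 5′ end. A strand could be assigned from listed starts to 12580 of the 15697 genes with interior (80.1%) and to 948 of the 1214 genes that held a member (78.1%). From 1 to 2 kb downstream of the 5′ end, 104 members gave 9.14 per Mb (7.47 to 11.1). From 1 to 2 kb before the 3′ end, 30 members in an almost equal amount of sequence gave 2.6 per Mb (1.75 to 3.71), and the intervals did not overlap. From 2 to 5 kb the values were 4.47 and 2.4 per Mb. Beyond 50 kb from the 5′ end the density was 4.35 per Mb, so it did not fall steadily with distance.

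Counted over pairs of a member and its gene, 686 of 1146 (59.9%, 57 to 62.7) lay nearer the 5′ end than the 3′ end, a side that holds 50% of the interior. Leaving out members within 1 kb of a listed start, the density at 1 to 2 kb was 6.55 per Mb (65 members) at the 5′ end and 2.45 (28 members) at the 3′ end. The share on the 5′ side was then 56.9% (53.9 to 59.9). How much interior lies on that side without the bases near listed starts was not computed, so 50% is not its exact reference. Stat6, the transcription factor that interleukin-4 activates, was an example near a 5′ end, with a 1535-bp peak centred 1.03 kb from it. Ier5, an immediate early gene, had a 1162-bp peak 1.29 kb into a gene of 3.27 kb, and Maff had its 1264-bp peak 1.36 kb in. Whether a member lies in an exon or an intron was not determined here, because the gene table gives no exons.

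**Figure D2:**
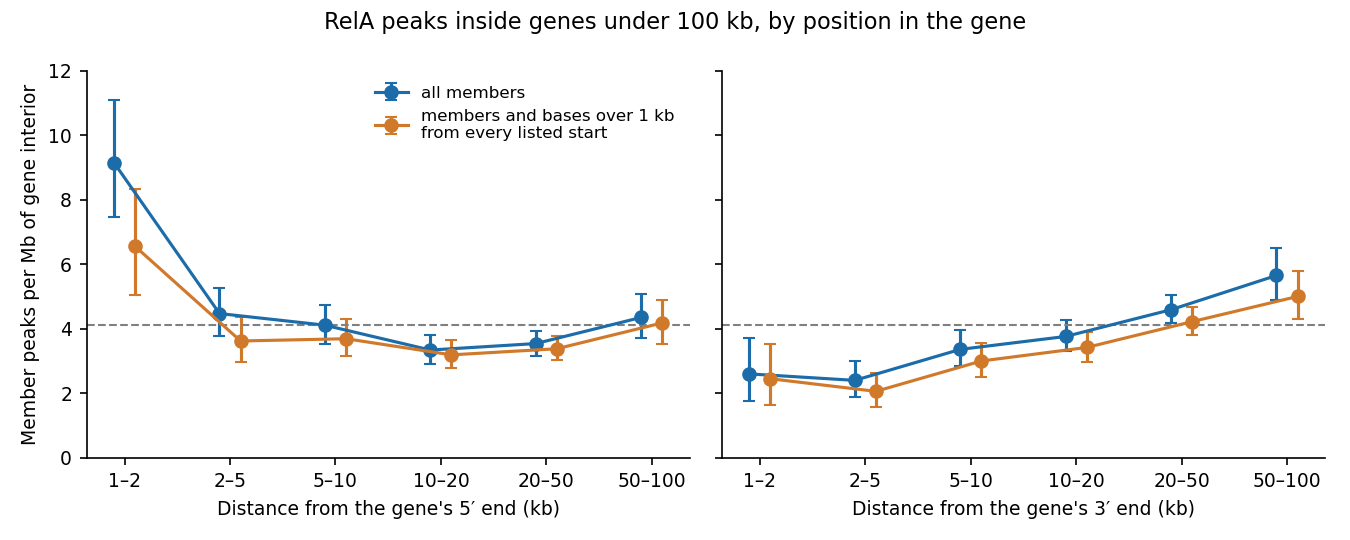
Density of member peaks per Mb of gene interior (y axis) by distance from the 5′ end (left) and the 3′ end (right) of the gene in kb (x axis, unequal bins), for all members (blue) and for members and bases over 1 kb from every listed start (orange), with exact Poisson 95% intervals. The dashed line is the density of all members, 4.1 per Mb. The first bin stands at 9.14 per Mb on the left and 2.6 on the right.

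Genes with a member in their interior had a peak at their outer 5′ end slightly more often than genes without one. A member at an inner listed start, as in Socs3, was not counted as such a peak. Of 948 genes holding a member, 89 (9.39%, 7.69 to 11.4) also had a peak centred within 1 kb of their 5′ end, beside 746 of 11632 (6.41%, 5.98 to 6.87) of the genes without a member. Gene span moved with this, because longer genes hold members more often. Among genes of 10 to 25 kb the shares were 12.3% (8.26 to 17.9) and 6.52% (5.78 to 7.35). Among genes of 25 to 50 kb they were 10.7% (7.66 to 14.7) and 7.51% (6.54 to 8.6), with overlapping intervals. Among genes of 50 to 100 kb they were 7.69% and 7.42%, and among genes under 10 kb 5.66% and 5.19%, again with overlapping intervals. Most genes holding a member therefore had no peak at their outer 5′ end.

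In all, 1214 of 15697 protein-coding genes under 100 kb with interior held a member, which is 7.73%. Exactly 1 member was held by 1020 genes, 2 by 150, 3 by 35, 4 by 4 and 5 by 5. The 194 genes with 2 or more contained 444 members. Neighbouring members of 1 gene were a median of 14.1 kb apart over 252 pairs, from 0.591 to 80.1 kb, and 45 pairs were under 5 kb apart. Another peak of any kind lay within 10 kb of 276 members (19%, 17.1 to 21.1), beside 13.8% (12.4 to 15.2) of the peaks inside genes of 100 kb or more. For peaks outside protein-coding genes the share was 16.7% (15.6 to 17.9) and for peaks at the ends of other genes 18.5% (15.2 to 22.3), intervals that overlapped that of the members. At protein-coding gene ends it was 11.8%, and over all peaks on these chromosomes 15.8%.

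The share of genes holding a member rose with gene span, from 1.31% of 4819 genes under 10 kb to 22.5% of 2383 genes of 50 to 100 kb. Density per Mb changed far less, with 4.02 (3.11 to 5.1) under 10 kb and 3.54 (3.11 to 4.01) at 10 to 25 kb. It was 3.87 (3.52 to 4.25) at 25 to 50 kb and 4.52 (4.19 to 4.86) at 50 to 100 kb. The intervals at 10 to 25 kb and at 50 to 100 kb did not overlap. The median span of the genes holding a member was 44.6 kb, and that of all genes with interior was 17.7 kb. The median distance from a member centre to the nearest gene end was 7206 bp, and over all bases of the interior it was 7673 bp.

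The pathway's own genes held members often, with the inhibitors first. Of 20 listed genes whose products restrain NF-kB, directly or as negative feedback, 9 held a member (45%, 25.8 to 65.8), and they held 14 members where the overall density would give 2.18 over their interior. Zc3h12a, which encodes Regnase-1, an RNase that degrades inflammatory mRNAs, was the most densely occupied gene among those with 3 or more members. Its 3 peaks, of 634, 547 and 626 bp, lay 2.98, 4.46 and 5.25 kb from the 5′ end of a 9.47-kb gene, within 2.27 kb of each other. No peak lay within 1 kb of its 5′ end.

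Tnip1, which encodes the A20-binding protein ABIN-1, held 3 members in the first 8.76 kb of a 52.2-kb gene, and also had a peak at its 5′ end. They were 877, 653 and 540 bp wide, and lay 1118, 6884 and 8740 bp from the nearest listed start of Tnip1. Tnfaip3, which encodes the ubiquitin-editing enzyme A20, held 1 member of 926 bp 6.17 kb from its 5′ end, chr10:19008773-19009698, and had a peak at the 5′ end as well. Nfkbie, which encodes IkB-epsilon, held a 1037-bp member 2.17 kb into a 7.47-kb gene, and had a peak at its 5′ end. The gene of the nuclear IkB protein Bcl-3, Bcl3, held a 703-bp member 5.23 kb from its 5′ end and likewise had a peak at the 5′ end.

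Nfkbiz, which encodes the nuclear protein IkB-zeta, held a 1104-bp member 10.8 kb from the nearest gene end. N4bp1, an RNase gene that restrains cytokine production, held 1 member 6.51 kb from the 5′ end. Spata2, which links the deubiquitinase CYLD to the TNF receptor complex, held 1 of 997 bp, 7.26 kb from the 5′ end. Nlrc5, a regulator of MHC class I genes, held 2, of 551 and 615 bp. For Nfkbiz and Nlrc5 no strand was assigned.

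On the list of NF-kB and IKK subunits and kinases, 3 of 9 genes held a member (33.3%, 12.1 to 64.6). Ikbkb, the gene of the catalytic kinase IKK-beta, held a 615-bp member 1.64 kb from a gene end, and Ikbke, the gene of the related kinase IKK-epsilon, held a 501-bp member 2.58 kb from its 5′ end. Map3k14, which encodes NIK, the kinase of the alternative NF-kB pathway, held 2, at 5.27 and 41 kb from the 5′ end. Among the 23 tested genes of TNF receptor signalling, 8 held a member (34.8%, 18.8 to 55.1), with 12 members where overall density would give 2.63. Traf5, a receptor adaptor gene, held 3, of 605, 1091 and 511 bp, at 20, 22 and 30.8 kb from the 5′ end of a 95.4-kb gene. Cflar, which encodes the caspase-8 regulator FLIP, held 2, at 12.9 and 33.6 kb.

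The other adaptors of that list held 1 or 2 each. Traf2, the main TRAF adaptor of TNF receptor 1, held a 1116-bp member 12.7 kb from its 5′ end. Traf1 held one of 804 bp 3.5 kb in, and Birc2, which encodes the ubiquitin ligase cIAP1, one of 706 bp 8.31 kb in. Tab1 and Tab2, adaptor genes of the kinase TAK1, held members of 1128 and 524 bp. Over the 3 lists together, 20 of 52 genes held a member (38.5%, 26.5 to 52), at 21.1 members per Mb (14.2 to 30.1). Of the 16 of these 20 genes with an assigned strand, 7 also had a peak at their 5′ end and 9 did not. These lists overlap with known RelA targets and were written with earlier results of these data known, so their counts are a description.

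**Figure D3:**
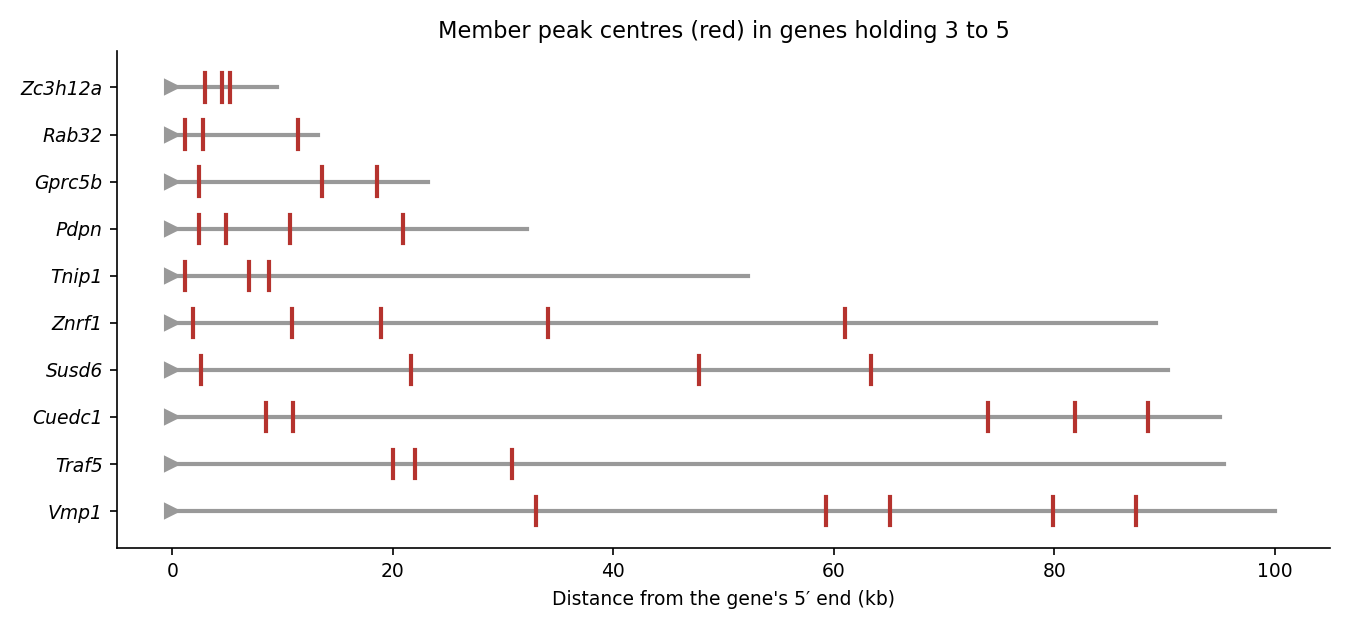
Positions of member peak centres (red ticks) along 10 genes holding 3 to 5 members, each gene drawn as a grey line from its 5′ end (arrowhead) to its 3′ end, in kb from the 5′ end (x axis). The 3 members of Zc3h12a lie within 2.27 kb, those of Tnip1 and Traf5 lie together in 1 stretch of a long gene, and those of Znrf1, Susd6 and Vmp1 are spread out.

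In TGF-beta and SMAD signalling, 11 of 20 genes held a member (55%, 34.2 to 74.2), and 18 members stood where overall density would give 4.11. This was the highest share of genes of any list, but shares rise with gene span and these genes are long. Per Mb the list stood at 17.9 (10.6 to 28.4), below cell survival genes (36.7), the AP-1 and immediate early list (32.6), NF-kB inhibitors (26.2) and cytokines (23.3). TNF receptor signalling and matrix remodelling genes (both 18.7) and adhesion and surface receptor genes (18.1) also stood slightly higher. The intervals of all these lists overlapped that of the TGF-beta and SMAD list. With the span limit at 50 kb its share was 33.3%, beside 35.7% for the 3 NF-kB and TNF receptor lists. TGF-beta cytokines signal through receptor kinases that phosphorylate SMAD transcription factors, and the pathway drives matrix production in fibroblasts. Smad7, which encodes an inhibitory SMAD, held 3 members of 637, 588 and 718 bp spread over 12 kb. Smurf1, a ubiquitin ligase that targets SMADs and receptors, held 2, at 2.28 and 67.2 kb from the 5′ end. Acvr1b, an activin receptor gene, held 2, at 9.48 and 17.6 kb. Ltbp2, related to the proteins that tether latent TGF-beta in the matrix, held 2 that lay 28.9 and 29.8 kb in. The other 7 genes, named after their values were seen, were Tgfb1, Tgfb2, Tgfbr2, Smad1, Smad6, Ski and Bmpr1a. Of the 10 with an assigned strand, 1 had a peak at its 5′ end.

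Cell survival genes held a member in 8 of 19 cases (42.1%, 23.1 to 63.7), with Bcl2l1, Bbc3 and Cflar holding 2 each. Adhesion and surface receptor genes did so in 10 of 28 (35.7%, 20.7 to 54.2). Pdpn, which encodes podoplanin, a surface glycoprotein of fibroblasts and lymphatic vessels, held 4, at 2.42, 4.86, 10.7 and 20.9 kb from the 5′ end of a 32.2-kb gene, with widths of 582, 750, 1018 and 698 bp. Il1r1, the interleukin-1 receptor gene, held 3, at 13.4, 51.4 and 60 kb. Vcam1, an adhesion molecule gene, held one of 1090 bp, and Cd47, whose product signals to phagocytes, held 2. Neither Pdpn nor Il1r1 had a peak within 1 kb of its 5′ end, but over the list 5 of the 9 genes with an assigned strand did.

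Of 29 cytokine and growth factor genes, 8 held a member (27.6%, 14.7 to 45.7). Il34, a ligand of the CSF1 receptor, held 5 in 64.1 kb, of 564, 888, 592, 668 and 530 bp, and the closest pair of them was 1.48 kb apart. Tnfsf15, a TNF family ligand gene, held 2, at 5.95 and 18.8 kb from the 5′ end. Tslp, which encodes an epithelial and stromal cytokine, held one of 782 bp. Chemokine genes are short, so 8 of 23 had no interior at all, and of the 15 tested only Cx3cl1 held a member (6.67%, 1.19 to 29.8), an 855-bp peak 7.1 kb from the 5′ end. That share was near the 7.73% of all genes, but shares are lower in short genes, with 1.31% for genes under 10 kb. Per Mb the chemokine list stood at 16.7 (0.422 to 92.9), with 1 member where the density of all members would give 0.246.

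Matrix remodelling, prostaglandin and acute-phase genes held a member in 7 of 27 cases (25.9%). Timp2, a metalloprotease inhibitor gene, held one of 1199 bp, and Mmp9, a gelatinase gene, one of 935 bp. The aggrecan-cleaving protease gene Adamts5 held one of 829 bp. Actin and focal adhesion genes did so in 9 of 31 (29%, 16.1 to 46.6), including Actn4, an actin cross-linker gene, with 3 at 4.95, 32.4 and 42.5 kb from the 5′ end, and Pxn, the paxillin gene, with 2 of 567 and 1336 bp. Of 15 YAP and TEAD target genes, 5 held a member (33.3%, 15.2 to 58.3), among them Ankrd1, 2.31 kb from its 5′ end, and Axl, a receptor kinase gene, 7.06 kb from its 5′ end.

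Among JAK-STAT and SOCS genes 5 of 19 held a member (26.3%, 11.8 to 48.8), beside 7.73% of all genes. Per Mb that list stood at 9.69 (3.56 to 21.1), an interval that included the 4.1 of all members. Stat3 held 2, at 7.91 and 41.4 kb from the 5′ end. The AP-1 and immediate early list had 5 of 27 (18.5%, 8.18 to 36.7), with 7 members where overall density would give 0.879. In it, Maff held a second member 10.6 kb in, and Batf held 2, at 16.9 and 19.1 kb into a 22.4-kb gene. Nr4a2, an orphan nuclear receptor gene, held one of 1490 bp, 9.03 kb from its 5′ end. MAPK phosphatase and Sprouty genes held a member in 2 of 17 cases (11.8%), Dusp4 with 1 and Spred2, a repressor of Ras signalling, with 3 between 41 and 62.4 kb. Their density was 10.5 per Mb (2.87 to 26.9), again with an interval that included 4.1.

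Lists near the overall share included interferon response genes, with 3 of 29 (10.3%, 3.58 to 26.4), and antigen presentation genes, with 2 of 21 (9.52%). The p53 and target list had 2 of 18 (11.1%) and circadian clock genes 3 of 18 (16.7%, 5.84 to 39.2). Per Mb, interferon response genes stood at 7.7 (2.1 to 19.7) and circadian clock genes at 6.19 (1.28 to 18.1). The antigen presentation and p53 lists each stood at 10.5 (2.16 to 30.6). All these densities were above the 4.1 of all members, with intervals that included it. Fibroblast identity and matrix genes had 5 of 23 (21.7%, 9.66 to 41.9), with 2 in Pdgfrb, a receptor that marks mesenchymal cells, and 1 in Dcn, Loxl1 and Prrx1 each. Their density was 8.08 per Mb (2.96 to 17.6), an interval that also included 4.1. None of 17 housekeeping genes (upper bound 18.4%), 13 hepatocyte genes or 13 skeletal muscle genes (upper bound 22.8% for both) held a member. The density of all members would give these lists only 0.638, 0.811 and 0.468 members, so a count of 0 does not show that they lack peaks. Macrophage markers had 2 of 9, Aif1 and Itgam. The endothelial, epithelial and neuronal lists had 1 each, Pecam1 of 10 genes, Cdh1 of 11 and Camk2a of 12. Gene span was not matched between lists, and these short lists give wide intervals.

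**Figure D4:**
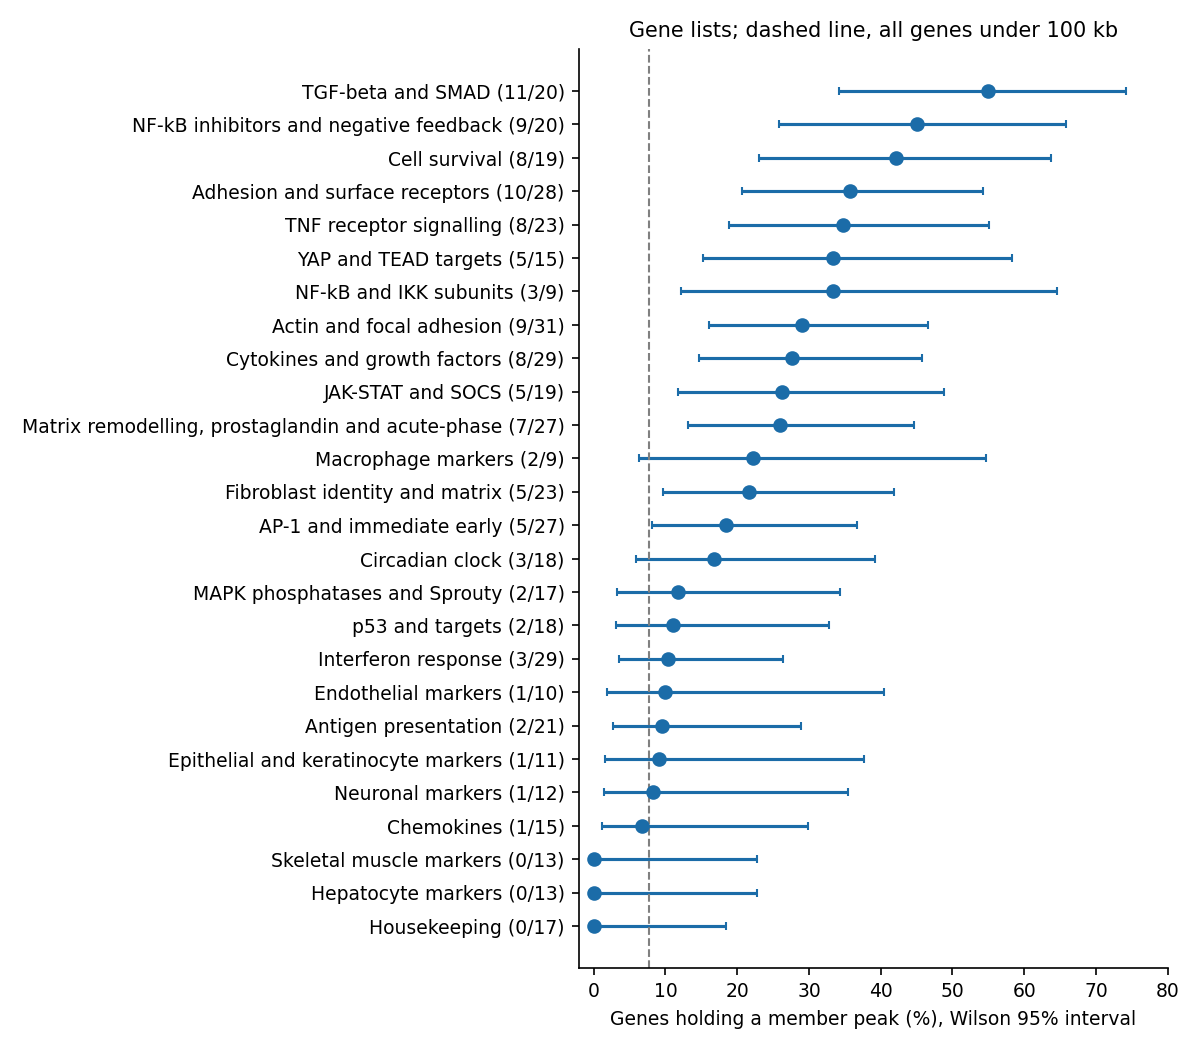
Percent of the tested genes of each list that held a member peak (x axis) with its Wilson 95% interval, lists ordered by that percent, with genes holding and genes tested in brackets. The dashed line is the share over all 15697 genes, 7.73%. Shares rise with gene span, which differs between lists. TGF-beta and SMAD genes stand at 55% and NF-kB inhibitors at 45%. Housekeeping, hepatocyte and skeletal muscle genes are at 0, where the density of all members would give 0.638, 0.811 and 0.468 members.

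The genes with the most members were not all on these lists. Mfhas1, Cuedc1, Vmp1, Znrf1 and Il34 held 5 each, and Plec, Susd6, Ankrd55 and Pdpn held 4. Znrf1, a ubiquitin ligase gene, had its members at 1.91, 10.8, 18.9, 34.1 and 61 kb from the 5′ end, and the first was centred 49 bp from a listed start. Cuedc1 had them in separate groups, at 8.49 and 10.9 kb and again at 74, 81.9 and 88.5 kb. Vmp1, an autophagy gene that spanned 99.979 kb and so lay just inside the limit of the rule, had them at 33, 59.3, 65.1, 79.9 and 87.4 kb, so that none lay near its 5′ end. Rab32, a small GTPase gene involved in organelle traffic, held 3 in 13.2 kb, which lay 1133, 2755 and 11432 bp from its listed start, and Rab20, another Rab GTPase gene, held 3 in 25.3 kb. Gprc5b held 3 in 23.2 kb, at 2.41, 13.6 and 18.6 kb, and Rassf2 held 3 in 37.6 kb.

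Member peaks covered 1020 kb, and their widths ran from 301 to 1915 bp around a median of 671.5 bp. The middle 50% were between 573 and 793 bp wide. They were similar in width to the peaks inside genes of 100 kb or more (median 674 bp) and narrower than the peaks within 1 kb of a protein-coding gene end (766 bp). Of the members, 61 (4.2%) were 1100 bp wide or more, beside 10.4% of the peaks at protein-coding gene ends and 5.08% of all peaks on these chromosomes. The widest was in Exoc3l4, chr12:111429519-111431433, 13 kb into a 14.3-kb gene and 12.2 kb from the nearest listed start, that of Tnfaip2. Prr7 (1779 bp), Cbx7 (1608 bp), Dnm1 (1594 bp) and Gm52006 (1548 bp) followed. The narrowest was a 301-bp peak in Nfic, followed by Tmem200b (355 bp), Marcks (357 bp), Col6a3 (378 bp) and Glipr2 (379 bp).

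Density over the interior was 4.1 members per Mb (3.89 to 4.31), as in genes of 100 kb or more (4.16, 4 to 4.34), above sequence outside protein-coding genes (3.17, 3.07 to 3.26) and below the zone around protein-coding gene ends (16.4). By chromosome it was highest on chromosome 11, with 148 members at 5.77 per Mb (4.88 to 6.77), then on 15 (5.22) and 1 (4.95). It was lowest on chromosome 16, with 32 members at 2.46 per Mb (1.68 to 3.47), then on 14 (3.04). Only the intervals of chromosomes 11 and 16 lay apart from that of all members. Of the members, 60 (4.13%) also lay inside a lncRNA gene, where density was 5.02 per Mb (3.83 to 6.46), and elsewhere it was 4.06.

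**Figure D5:**
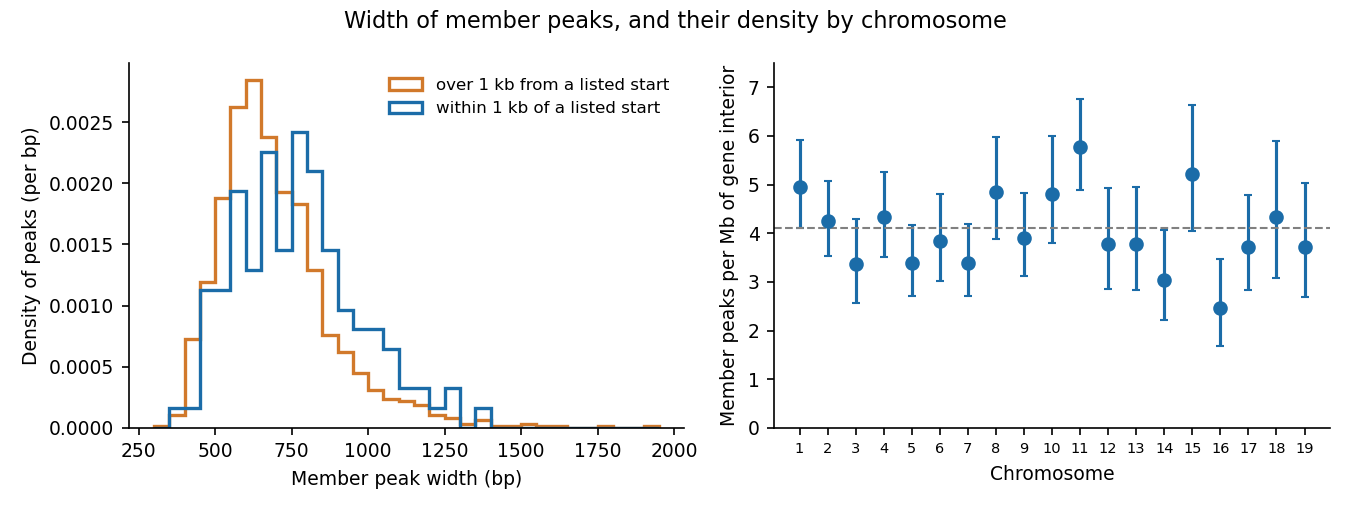
Left, distribution of member peak width in bp (x axis, bins of equal width, y axis in peaks per bp so that each outline has an area of 1) for members within 1 kb of a listed start (blue) and farther away (orange). Right, members per Mb of gene interior on each chromosome with exact Poisson 95% intervals, the dashed line being all members at 4.1. Medians on the left are 757.5 and 664 bp, and chromosomes 11 (5.77) and 16 (2.46) are the extremes on the right.

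At the limits of the rule, the members in the longest genes were in Ube4b (99.746 kb), Wipf1 (99.878 kb) and Vmp1, and the peaks just left out were in Specc1l (100.36 kb), Cpe (100.57 kb) and Wscd2 (100.62 kb). The members nearest to a gene end were in Mchr1 (1003 bp from it), Bbc3 and Patl2 (both 1005 bp), and those just left out were in Wdr1 (990 bp), Pnrc1 (991 bp) and Plxnb2 (998 bp). A further 14 members lay in 2 protein-coding genes at once, among them Eif2d with Rassf5, so that the gene named is not the only one at those peaks.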

How the data were processed

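RelA ChIP-seq was made per the labels' protocols with cross-linking by disuccinimidyl glutarate and then formaldehyde, which can also retain proteins bound through other proteins. The submitters' processing notes name the mm10 genome and the tools MACS2, deepTools, Bowtie2 2.3, cutadapt 1.9.1, Picard 1.13 and SAMtools. Not given in the sources used here are the order of steps, the threshold for a peak, how input entered, and any pooling. The values the authors deposited are peak positions in base pairs (chromosome, start and end), a unit with no count, height or score, so no depth, replicate error or test between times was possible. Starts were converted to positions counted from 1.

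Genes came from a RefSeq table of GRCm38.p6 that placed 49209 genes, 21521 of them protein-coding, on the 19 autosomes or X, after 345 on scaffolds were left out. Strand and 31396 transcript starts came from RefSeq start windows of 300 bases, for chromosomes other than 18. In all, 80.1% of the genes with interior had a listed start, and some genes on those chromosomes had none. No genome sequence was used, so exons, introns and motifs across whole peaks were not analysed here. Counts, medians, exact Poisson intervals for densities and Wilson intervals for shares (both 95%, counting error only) were computed with Python 3.11.15, numpy 2.4.6, pandas 2.3.3 and scipy 1.17.1. The rule was tested on simulated peaks. No p-value was computed, and the classes were compared by their intervals only.

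The members, the 26 gene lists (573 of 574 symbols matched) and the alternatives were chosen with earlier results of these data known. Named genes were all holders in the 3 NF-kB and TNF receptor lists, the 4 genes with most members in each other list, the 15 with most members, the 10 densest among genes with 3 or more, those of the 10 widest and 5 narrowest members, and the 3 on either side of each limit of the rule. Genes of start windows, Rassf5, Tnfaip2 and those so marked in the text were picked with their values in view. Some genes that the rule names are not reported here. The alternatives changed the gene end margin, the span limit, the neighbour window, the peak set, the gene set and the use of the centre.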

Additional observations from a re-analysis of the deposited data

Results flagged for a closer look

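Chromosome X lies outside the rule, and its peaks were singled out because they are data that no comparison above used. Of its 135 peaks, 19 would otherwise have met the rule, over 14.3 Mb of interior. That is 1.33 per Mb (exact Poisson 95% interval 0.798 to 2.07), and members on chromosomes 1 to 19 stood at 4.1 per Mb (3.89 to 4.31). The cause of the difference was not tested.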

How the results depend on the processing

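Of 123 values recomputed under alternatives, 91 moved by less than their counting error or, for counts, by less than 1.5 times, and 32 moved more. The share of the 3 NF-kB and TNF receptor lists holding a member stayed within 26.9 to 46.2%, and the kappaB share of start windows in member peaks within 25.7 to 32.8%, in all 10 alternatives. With a gene end margin of 2 kb, 7.31% of genes held a member and the median distance to a gene end was 9164 bp. With 0.5 kb these were 8.25% and 6126 bp, density was 4.37 per Mb, and the ratio of density at listed starts to that beyond was 5.23. A span limit of 50 kb gave 740 members, 3.77 per Mb, 5.07% of genes, 4906 bp, 10 genes with 3 or more members, 62.7% of members nearer the 5′ end of the gene and 33.3% of the TGF-beta and SMAD list. A limit of 150 kb gave 9.33%, 9610 bp and 86 genes with 3 or more. Requiring the whole peak inside gave 3.83 per Mb, 7.21% and 7973 bp. Keeping only the wider peaks gave 674 members with a median width of 802 bp, 1.9 per Mb, 3.99% of genes, 5 genes with 3 or more, 6.68% with another peak within 10 kb and a start ratio of 9.09. Leaving out predicted genes gave 8.2% and 9090 bp. Merging peaks within 1 kb lowered the share with a neighbour within 10 kb to 16.8%, and windows of 5 and 50 kb gave 8.26% and 56.8%. Without members at listed starts, 56.9% lay nearer the 5′ end. The list and start-window values, and the 5′-side values other than that at the 2 kb margin (57.3%), were recomputed as additions chosen after seeing the data. The changes in counts follow from fewer or more genes and peaks being used, and other causes were not tested. The share of whole peaks with a kappaB motif was not run, for it needs a genome sequence. No paired analysis was possible because the peaks carry no value per sample. Depth limits on these values are unknown.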
